A study of Pinus pinaster with 6 samples.

Results

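Glutamine synthetase (GS) joins ammonium to glutamate and forms glutamine, and glutamate synthase (GOGAT) then passes the amide nitrogen of glutamine to 2-oxoglutarate, which regenerates glutamate. Together they form the cycle through which plant roots bring ammonium into amino acids, and the GS of this cycle in roots is a cytosolic enzyme (GS1). Pines carry a GS1a form, known from green tissue, and a GS1b form, known from vascular tissue and roots. The transcripts described here are 4 of the 46658 transcripts measured in maritime pine (Pinus pinaster) roots. They were chosen by their ID, with earlier results of these data known: pp_68474, pp_68477, pp_68481 and pp_68486. The study's annotation names pp_68477, pp_68481 and pp_68486 as cytosolic glutamine synthetase GS1b. It names pp_68474 as a glutamine synthetase of this pine without an isoform, and the study's text uses the gene name PpGS1b for both pp_68474 and pp_68481. All 4 were placed in one unigene of the transcriptome. The GS1b name therefore does not separate the abundant row from the rare ones, and they are called here by ID, as the abundant form (pp_68474) and the 3 rare forms.

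The libraries came from whole roots of 1-month-old seedlings that had been grown in vermiculite with distilled water. After acclimation, control seedlings received 80 mL of water (libraries C1, C2 and C3) and ammonium seedlings received 80 mL of 3 mM NH4Cl (libraries N1, N2 and N3), and roots were frozen 24 h later. Each group had 3 libraries, and the labels describe the experiment as independent repeats, so p-values measure the spread between these repeats. Direct RNA sequencing reads native poly(A) RNA in a nanopore, so that 1 read stands for 1 RNA molecule or a part of it and no cDNA copies are counted. Values are CPM, read counts scaled to library size, and levels of different transcripts were not divided by transcript length, because the lengths are not used here. The tissue is as labelled and was not checked against root markers.

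The 6 libraries held between 1270378 (C1) and 5416076 (N3) reads assigned to transcripts, a 4.26-fold range. One read was worth 0.767 CPM in C1 and 0.178 CPM in N3, so values of the rare forms are least precise in C1. C1 and N1 lay apart from the other 4 libraries in a principal component analysis, and results are also given without them.

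The study designed oligonucleotides for 2 of the 4 forms, shown here because its primer table ties them to these IDs. The qPCR primers of the rare form pp_68481, 21 and 22 bases long and written 5′ to 3′, have no capitals because no part of them is compared.
pp_68481 forward: cccaattgtttgtgggggata
pp_68481 reverse: ctgaatgacaaactagacactg

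For the abundant form pp_68474 the study listed oligonucleotides for SELECT, a qPCR assay in which an up and a down oligonucleotide are joined across one RNA base less well when that base is modified. Their names give positions 878 and 881, but as listed the oligonucleotides of one position are shifted by 2 bases against those of the other, where the names differ by 3, and the numbering could not be checked. The stretch of 18 bases that the oligonucleotides of both positions share is in capitals, and the adaptor ends are left out.
up, position 881: TAGGTAAGGCGTCCCCCTtg
up, position 878: ccTAGGTAAGGCGTCCCCCT
down, position 881: TGTAGAACCACTAAACACtat
down, position 878: gtTGTAGAACCACTAAACAC
The primer table assigns these sets to different IDs under the same gene name, and whether they also match other forms was not tested.

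Roots held far more of the abundant form than of the rare ones, and the rare ones differed more between the treatments. The abundant form was 1.16 times as high under ammonium as in controls, and the rare forms were 2.11 to 2.87 times as high. In CPM the order was the other way round: the abundant form differed by 117 CPM between the group means and the 3 rare forms together by 34.0 CPM. Of the 151 CPM that separated the summed levels of the 4 forms, 77.5% came from the abundant form and 22.5% from the rare forms. For each of the 4 forms every ammonium library was higher than every control library. Of all transcripts, 7.16% had ammonium libraries all above the control libraries in this way and 6.94% had them all below.

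The abundant form pp_68474 measured 752 CPM in C1, 735 in C2 and 711 in C3. Under ammonium it measured 847 CPM in N1, 839 in N2 and 864 in N3. The 3 control libraries lay close together, as did the 3 ammonium libraries, and a gap separated the groups. The means were 733 ± 20.6 CPM (SD, n = 3) in controls and 850 ± 12.6 CPM (SD, n = 3) under ammonium. It was the transcript with the 74th highest mean CPM of all 46658 and rested on 980 reads in C1 and 2609 to 4845 reads in the ammonium libraries. The log2 fold change of CPM + 1 was 0.21 (SE 0.09) in limma fitted across all transcripts, a fold change of 1.16 with a 95% interval of 1.02 to 1.32. This did not pass the threshold of 0.05 after adjustment over all transcripts (limma adjusted p = 0.506), nor did it in edgeR's quasi-likelihood test (adjusted p = 0.450), edgeR's exact test (adjusted p = 0.663) or DESeq2 (adjusted p = 0.987). A log2 fold change above that of pp_68474 was found in 22.1% of all transcripts. In whole roots, a higher level from more cells that carry a transcript and one from more of it per cell cannot be told apart, which holds for every form.

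**Figure D1:**
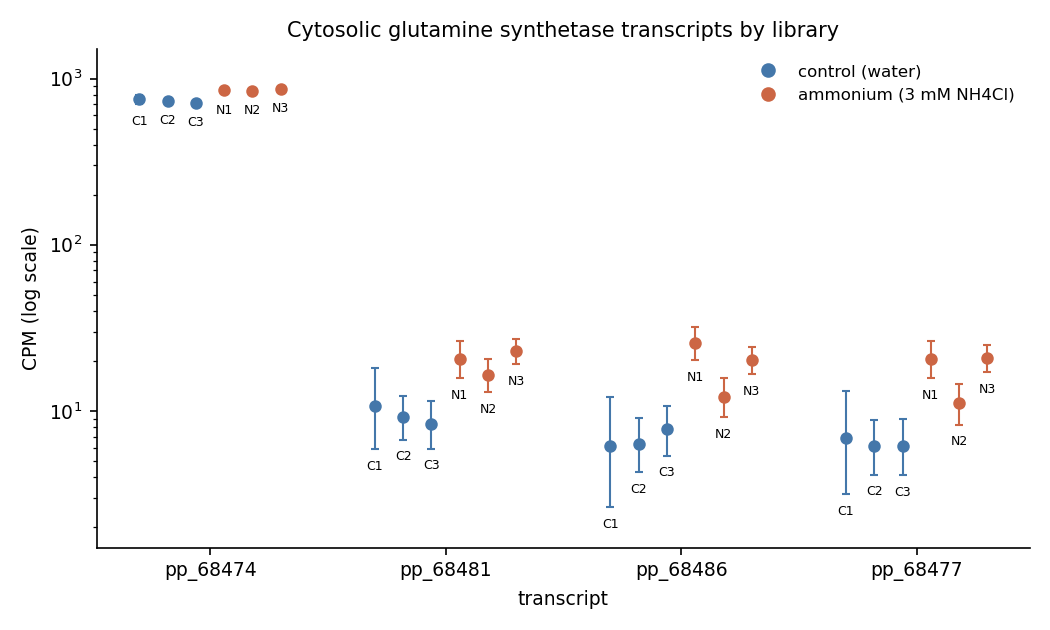
CPM on a log scale (vertical axis) of the 4 cytosolic glutamine synthetase transcripts (horizontal axis) in 3 control libraries (blue) and 3 ammonium libraries (orange). Points are libraries and bars are exact 95% Poisson intervals of the reads, which cover counting error only. The abundant form pp_68474 lay between 711 and 864 CPM, and the other 3 forms lay between 6.14 and 25.7 CPM, with ammonium above control for each form.

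Among the rare forms, pp_68481 is the one that the study followed by qPCR. Its level was 10.7 CPM in C1, 9.21 in C2 and 8.39 in C3, from 14, 45 and 38 reads. Under ammonium it was 20.5 CPM in N1, 16.4 in N2 and 22.8 in N3, from 63, 77 and 128 reads. The lowest ammonium library, N2, was still above the highest control library, C1, but their counting intervals overlapped (13.0 to 20.5 CPM in N2 and 5.87 to 18.0 CPM in C1). Means were 9.45 ± 1.19 CPM in controls and 19.9 ± 3.24 CPM under ammonium (SD, n = 3 each). The log2 fold change was 0.99 (SE 0.18), a fold change of 1.99 with a 95% interval of 1.53 to 2.60.

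For the rare form pp_68486 the controls measured 6.14, 6.34 and 7.73 CPM in C1, C2 and C3. The ammonium libraries measured 25.7 CPM in N1, 12.2 in N2 and 20.1 in N3. It had the highest single value of any rare form, in N1, and the widest spread within a group among them, since N1 was more than double N2. Means were 6.74 ± 0.866 CPM in controls and 19.3 ± 6.79 CPM under ammonium (SD, n = 3 each). The log2 fold change was 1.34 (SE 0.23), a fold change of 2.53 with a 95% interval of 1.79 to 3.58.

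The rare form pp_68477 measured 6.90 CPM in C1, 6.14 in C2 and 6.18 in C3, the tightest control group of the rare forms. It measured 20.5 CPM in N1, 11.1 in N2 and 20.7 in N3. N1 and N3 were alike and N2 lay between them and the controls. Means were 6.41 ± 0.431 CPM in controls and 17.4 ± 5.47 CPM under ammonium (SD, n = 3 each). The log2 fold change was 1.26 (SE 0.23), a fold change of 2.40 with a 95% interval of 1.72 to 3.36. These limma folds are on the CPM + 1 scale and are smaller than the ratios of the mean CPM, which were 2.72 for pp_68477, 2.11 for pp_68481 and 2.87 for pp_68486.

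None of the 4 forms passed limma after adjustment over all transcripts, where 0.00857% of transcripts were called higher and 0.03% lower. The adjusted p-values of the rare forms in limma were 0.0727 for pp_68486, 0.0780 for pp_68477 and 0.0783 for pp_68481. At an unadjusted limma p under 0.05 all 4 forms were higher, against 4.1% of all transcripts that were higher and 4.58% that were lower. On whole reads recovered from the CPM values, the 3 rare forms passed all 3 count tests and the abundant form passed none of them. The study had already reported pp_68481 as upregulated from these libraries with edgeR, and the members were chosen with earlier results known. These calls are therefore no independent support. The exact test of edgeR gave adjusted p-values of 0.000192 for pp_68486, 0.000354 for pp_68477 and 0.000520 for pp_68481, and called 0.253% of all transcripts higher and 0.559% lower. The quasi-likelihood test of edgeR gave adjusted p-values of 0.0229 to 0.0261 and called 0.0622% higher. DESeq2 gave adjusted p-values of 0.00661 for pp_68486, 0.0103 for pp_68477 and 0.0281 for pp_68481 and called 0.0557% higher. By log2 fold change in limma, pp_68486 ranked 12th, pp_68477 21st and pp_68481 156th of all transcripts. Leaving out single libraries moved the limma adjusted p of the rare forms both ways: without N3 it was 0.303 for pp_68477, 0.324 for pp_68481 and 0.258 for pp_68486, without C2 it was 0.136 to 0.137, and without N2 pp_68477 and pp_68486 passed (0.0428 for each). Without C1 and N1 together, a setting chosen after seeing the data, all 3 rare forms passed limma (adjusted p = 0.0177 for pp_68481, 0.0366 for pp_68477 and 0.0439 for pp_68486).

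**Figure D2:**
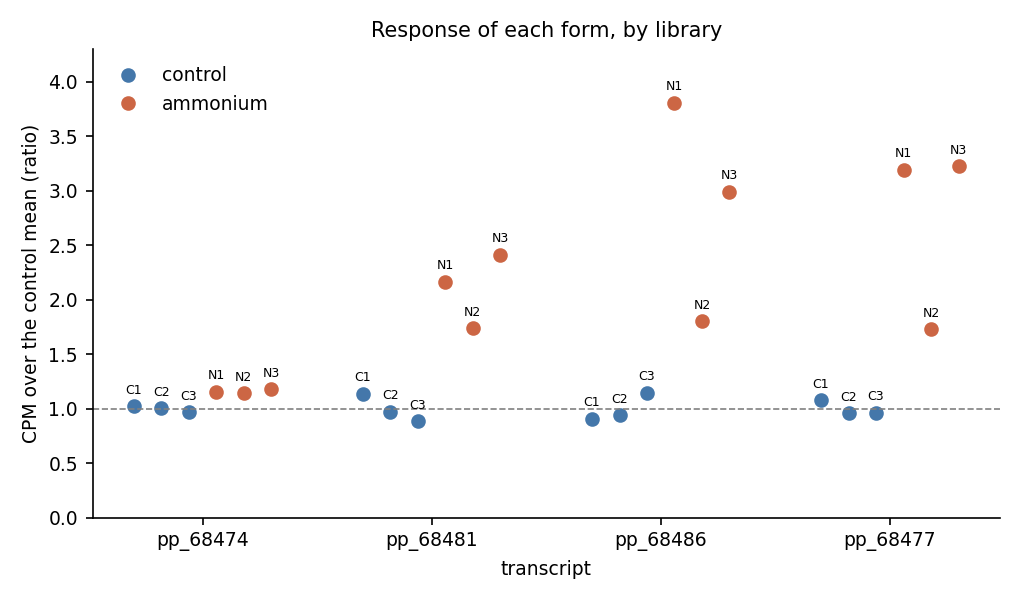
CPM of each form in each library divided by that form's mean over the 3 control libraries (vertical axis, a ratio), for the 4 forms (horizontal axis). Blue points are control libraries, orange points are ammonium libraries and the dashed line marks the control mean. The ammonium libraries of pp_68474 lay between 1.14 and 1.18, and in each of the 3 rare forms N2 was the lowest ammonium library, at 1.73 to 1.80.

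The response differed between ammonium libraries for the rare forms and hardly for the abundant form. Relative to the control mean of each form, N1 was 3.19 times as high for pp_68477, 2.17 for pp_68481 and 3.81 for pp_68486. The ratios in N3 were 3.23, 2.42 and 2.99, and those in N2 were 1.73, 1.74 and 1.80. So the 3 rare forms had nearly the same ratio in N2, the lowest ammonium library for each, and spread out in N1 and N3. The counting intervals of pp_68486 in N1 (20.3 to 32.0 CPM) and N2 (9.21 to 15.7 CPM) did not overlap, and neither did those of pp_68477 in N1 (15.7 to 26.2 CPM) and N2 (8.28 to 14.5 CPM). For pp_68481 the intervals of N1 (15.7 to 26.2 CPM) and N2 overlapped. The abundant form showed ratios of 1.16, 1.14 and 1.18 in N1, N2 and N3, so that N2 was also its lowest ammonium library, by a margin within counting error. N2 was one of the deeper libraries, with 4518917 reads.

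Whether the rare forms and the abundant form differed in response was tested on the log2 ratio of each rare form to pp_68474 within a library. The log2 ratio of pp_68481 was -6.14 ± 0.12 in controls and -5.36 ± 0.21 under ammonium (SD, n = 3), a difference of 0.78. For pp_68477 it went from -6.63 ± 0.06 to -5.58 ± 0.47, a difference of 1.05, and for pp_68486 from -6.57 ± 0.20 to -5.45 ± 0.51, a difference of 1.13. In each of the 3 pairs every ammonium library had a higher ratio than every control library. The exact two-sided permutation test gave p = 0.10 for each pair, and 0.10 after adjustment over the 3 pairs, which is the smallest p that 3 against 3 libraries allow. The 95% limma interval of the fold change of pp_68474 ended at 1.32, below the lower ends for pp_68481 (1.53), pp_68477 (1.72) and pp_68486 (1.79). These intervals are not adjusted over all transcripts and are no test of the difference between forms. The forms were also chosen with earlier results known, so the comparison is description only.

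As a share of the summed CPM of the 4 forms, the 3 rare forms made up 3.07% in C1, 2.86% in C2 and 3.04% in C3. They made up 7.29% in N1, 4.51% in N2 and 6.86% in N3. Shares were nearly equal among controls and all lower than the lowest ammonium share, that of N2. Mean shares were 2.99% ± 0.110 in controls and 6.22% ± 1.49 under ammonium (SD, n = 3 each), a difference of 3.23 percentage points, given as a description with no test because it is a sum over chosen transcripts. The exact 95% binomial (Clopper-Pearson) intervals, which cover counting error only, ran from 2.09% to 4.32% in C1, the shallowest library, and from 3.90% to 5.19% in N2, so these intervals overlapped. The interval of N2 lay below those of N1 (6.35% to 8.31%) and N3 (6.19% to 7.58%). The abundant form was thus 31.6 to 33.9 times the sum of the 3 rare forms in controls and 12.7 to 21.2 times that sum under ammonium. Without C1 and N1 the difference in share was 2.74 percentage points.

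**Figure D3:**
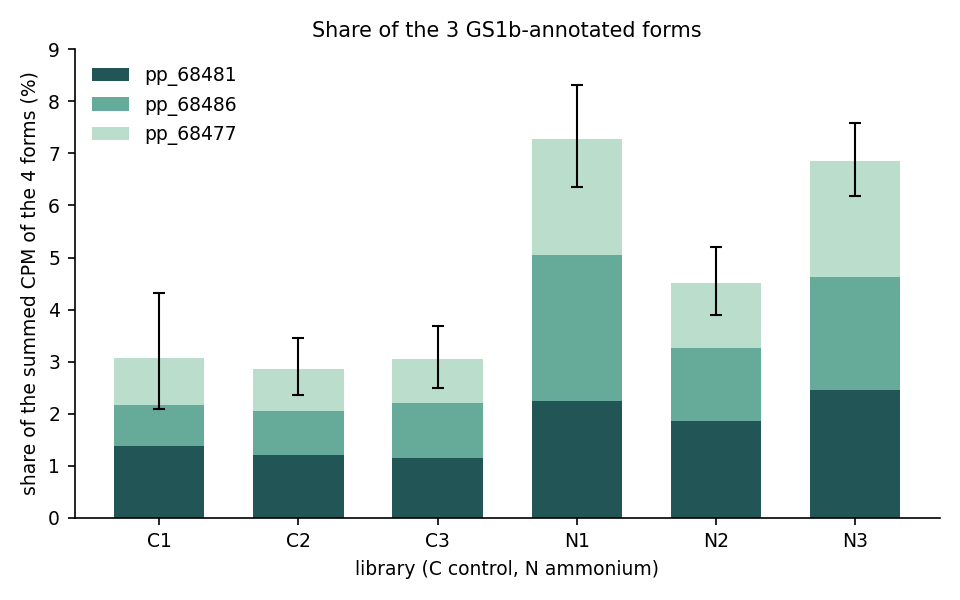
Share of the 3 rare forms in the summed CPM of the 4 forms, in percent (vertical axis), in each library (horizontal axis), stacked by form. Black bars are exact 95% binomial intervals of the total share. The total was between 2.86% and 3.07% in the control libraries and between 4.51% and 7.29% in the ammonium libraries.

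Within the rare forms the order of levels was less clear. In controls pp_68481 was the highest of the 3 in every library and made up 41.7% ± 3.82 of their sum, against 29.9% ± 4.46 for pp_68486 and 28.4% ± 0.656 for pp_68477 (SD, n = 3 each). In CPM, the control means of pp_68486 (6.74 ± 0.866) and pp_68477 (6.41 ± 0.431) differed by less than either SD. Under ammonium the shares were 36.0% ± 5.33 for pp_68481, 33.6% ± 4.29 for pp_68486 and 30.4% ± 2.29 for pp_68477, and the ranges of the 3 forms over the libraries overlapped (30.7% to 41.4%, 30.6% to 38.5% and 28.0% to 32.5%). For each form these shares overlapped between control and ammonium libraries. In N1 pp_68486 was the highest with 79 reads, and pp_68477 and pp_68481 had 63 reads each, while in N2 and N3 pp_68481 was the highest.

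The annotation lists 5 further glutamine synthetase transcripts, of which pp_68485 has no row in the table used here. Those at levels like the abundant form were pp_68475, pp_68483 and pp_68484. The transcript pp_68475 measured 674 ± 22.4 CPM in controls and 775 ± 49.9 CPM under ammonium, pp_68484 673 ± 22.4 and 774 ± 49.4 CPM, and pp_68483 645 ± 25.2 and 740 ± 60.1 CPM (SD, n = 3 each). Their log2 fold changes of 0.20 each were close to that of pp_68474, and none passed limma (adjusted p = 0.568 to 0.578). The rare transcript pp_68478 measured 2.13 ± 0.627 CPM in controls and 4.54 ± 3.01 CPM under ammonium (SD, n = 3 each), with groups that overlapped (limma adjusted p = 0.616). Its log2 fold change was 0.70, a fold change of 1.63 with a 95% interval of 0.944 to 2.80. That interval held the fold changes of the 3 rare forms. Over these 4 transcripts the median log2 fold change was 0.20, against 1.13 over the 4 members and 0.0043 over all transcripts. The members are mostly rare rows and these 4 are mostly abundant ones, so the medians do not compare transcripts of like level.

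Reads of the abundant rows were nearly the same from row to row. In N1 pp_68475 and pp_68484 had 2213 reads each, and in the other 5 libraries they differed by 1 to 7 reads, where independent counting alone would give an SD of the difference of 42.4 to 95.5 reads. The abundant form pp_68474 exceeded pp_68475 by 81 reads in C1 and by 396 in N1, or 5.52% to 15.2% of its reads over the 6 libraries. The excess of pp_68474 over pp_68475 was 58.5 ± 6.51 CPM in controls and 75.0 ± 46.5 CPM under ammonium, with overlapping groups, since it was 129 CPM in N1 but 46.3 in N2 and 50.1 in N3. Whether a read was assigned to more than one of these rows is not given in the sources used here, so the levels of the abundant rows are uncertain one against another, and a sum over them may count a read more than once. With the other listed GS transcripts in the denominator, a sum with this limit, the rare forms made up 0.822% ± 0.0361 in controls and 1.78% ± 0.499 under ammonium (SD, n = 3 each). Among the rare rows, pp_68477 and pp_68481 differed by 0 reads in N1 (SD from counting 11.2) and 25 in N2 (SD 11.4). The rows pp_68477 and pp_68486 differed by 1 read in C1 and in C2 and by 16 in N1 (SD 11.9). Some of these differences were larger than the SD from counting, unlike those of pp_68475 and pp_68484.

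The partners of GS in nitrogen assimilation, from lists based on the study's annotation, comprised 36 listed and 31 measured transcripts. Of these, 1 passed limma as higher and none as lower (0.00857% and 0.03% of all transcripts), 10 passed edgeR's exact test as higher (0.253% of all transcripts), and 7 passed the quasi-likelihood test (0.0622%) and 7 DESeq2 (0.0557%) as higher. The median log2 fold change over the 31 was 0.17. The one that passed was pp_238920, an NADH-dependent glutamate synthase, which completes the cycle that GS begins. It measured 53.7, 58.1 and 63.8 CPM in C1, C2 and C3 and 91.2, 103 and 97.2 CPM in N1, N2 and N3. Its log2 fold change was 0.72 (SE 0.12, limma adjusted p = 0.0458), and N2 was its highest ammonium library, whereas N2 was the lowest for every GS member. This contrast in order was not tested. For pp_68474 the margin of N2 lay within counting error, and for pp_68481 the counting intervals of N1 and N2 overlapped. All 7 NADH-dependent glutamate synthase transcripts passed edgeR's exact test as higher, against 0.253% of all transcripts. They were also the 7 that passed the quasi-likelihood test and DESeq2. Several of these rows had nearly the same values (pp_238921, pp_238922, pp_238923 and pp_238926 at 85.0 to 86.5 CPM in controls). The other exact calls were 2 asparaginase rows with nearly the same values (pp_167570 and pp_167571) and 1 alanine aminotransferase row (pp_201570). The counts over the 31 are therefore not counts of separate genes. In controls the rare GS forms, at 6.41 to 9.45 CPM, were far below pp_238920 at 58.5 CPM, and the abundant GS form was far above it.

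The transporter and the enzymes that use glutamine or glutamate gave smaller or less certain differences. The ammonium transporter transcript pp_203543 (AMT1.3) measured 32.5 ± 10.2 CPM in controls and 44.5 ± 5.72 under ammonium, with overlapping groups (limma adjusted p = 0.497). Asparaginase releases ammonium from asparagine, and its transcript pp_167570 measured 72.5 ± 11.6 and 115 ± 20.3 CPM (limma adjusted p = 0.172, edgeR exact adjusted p = 0.0183). A more abundant asparaginase transcript, pp_167572, had means of 208 CPM in controls and 230 CPM under ammonium, with overlapping groups. The log2 fold change of pp_167572 was 0.14 (limma adjusted p = 0.722). Asparagine synthetase, which takes the amide group from glutamine, measured 125 ± 13.8 and 117 ± 12.3 CPM (pp_85638, limma adjusted p = 0.860). For the other enzymes the list member with the smallest limma p was not called by limma: pp_110731 of glutamate dehydrogenase (log2 fold change 0.33), pp_127773 of another glutamate synthase (0.14), pp_83996 of aspartate aminotransferase (0.11), pp_201570 of alanine aminotransferase (0.76), pp_139009 of glutamate decarboxylase (-1.05) and pp_153221 of cytosolic isocitrate dehydrogenase (0.17), which supplies 2-oxoglutarate. The value of pp_139009 rested on 0 to 14 reads per library, and the other measured glutamate decarboxylase transcripts, pp_155838 and pp_233397, lay at -0.10 and -0.15. The qPCR reference transcript pp_199988 differed by 0.11 on the log2 scale (limma adjusted p = 0.831).

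**Figure D4:**
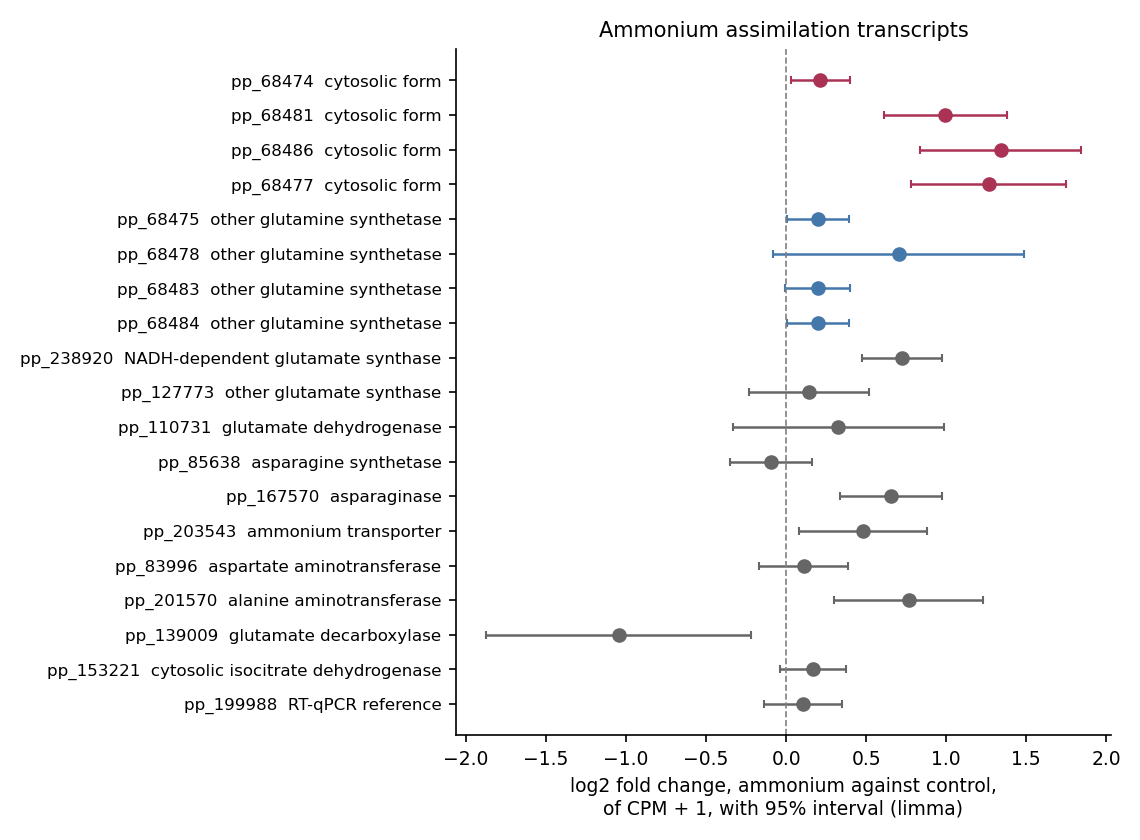
Log2 fold change of CPM + 1, ammonium against control, with 95% limma intervals (horizontal axis), for the 4 cytosolic forms (red), the other measured glutamine synthetase transcripts (blue) and, from each list of partner enzymes and references, the transcript with the smallest limma p (grey). The 3 rare forms lay at 0.99 to 1.34 and the abundant form at 0.21, next to pp_68475, pp_68483 and pp_68484 at 0.20. The rare transcript pp_68478 lay at 0.70, with an interval from -0.083 to 1.49.

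Transcripts with the profile most like that of pp_68481 over the 6 libraries were sought among 17828 transcripts with a mean of at least 10 CPM, by the root mean square difference of centred log2(CPM + 1). Of those that the study annotated, the nearest was pp_239598, a class IV chitinase, an enzyme that cuts chitin, at 0.16, and it measured 11.5, 12.5 and 12.6 CPM in C1, C2 and C3 and 28.6, 19.0 and 26.7 CPM in N1, N2 and N3. The next were pp_66323, annotated as non-classical arabinogalactan protein 30, a cell wall protein, at 0.22, and pp_239594, another class IV chitinase, also at 0.22. For pp_239598 and pp_239594, N2 was the lowest ammonium library, as for pp_68481. The nearest annotated transcripts to the abundant form pp_68474 were pp_33185 at 0.03, a ketol-acid reductoisomerase of branched-chain amino acid synthesis, pp_202088 at 0.03, an auxin-responsive protein, and pp_119266 at 0.03, a chalcone isomerase family protein. Each of the 3 was higher in every ammonium library than in every control library, as were pp_68474 and 7.16% of all transcripts. These transcripts were chosen for likeness over the same libraries, so the patterns they share with the members largely follow from the choice and are description only. These likenesses rest on 6 libraries, and transcripts of one library share its depth.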

How the data were processed

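The authors' base calling used Guppy and a read quality above 9, their alignment used minimap2 against a root transcriptome of this pine, and their CPM values and low-level filter (2 CPM or more in 2 samples or more, met by all 46658 deposited transcripts) came from edgeR. Which program counted the reads, and the versions of minimap2 and edgeR, are not stated in what was used here. The deposited CPM values were whole multiples of the value of 1 read (100% of values in each library, tolerance 1e-06), and the whole reads recovered from them were used for edgeR and DESeq2 as alternatives, in which edgeR's exact test called 379 transcripts and its quasi-likelihood test 114. In C1, 3 reads gave 2.30 CPM, and in N3 they gave 0.535 CPM.

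The main test was limma (3.58.1, lmFit and eBayes with trend) on log2(CPM + 1) over all 6 libraries, with Benjamini-Hochberg adjustment over all transcripts and a threshold of 0.05. It understates the change of low transcripts and weights all libraries equally, whatever their depth. Ratios within libraries were tested by exact permutation (scipy 1.17.1). Tried as well were other pseudocounts (0.25 and 4 CPM), a filter of 10 CPM or more in 3 libraries, TMM factors, quantile normalization, no trend, edgeR 4.0.16 and DESeq2 1.42.0 on the reads, a block for replicate number, and fits without single libraries, all in R 4.3.3. The scripts were tested on simulated data. The members and lists were chosen with earlier results of these data known. Lists came from the annotation in the study's supplementary tables. Named were the members, the other glutamine synthetase transcripts, the member of each other list with the smallest limma p, and the 3 annotated transcripts nearest in profile to pp_68481 and to pp_68474. Some further members of the lists were named as well.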

Additional observations from a re-analysis of the deposited data

How the results depend on the processing

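Over 68 combinations of a member and an alternative none changed direction, 52 stayed short of the threshold and 16, all of the rare forms, passed it. The count of transcripts called by limma was 18 and was 114 with edgeR's quasi-likelihood test, 379 with edgeR's exact test, 83 with DESeq2, 0 without a mean-variance trend (3658 at an unadjusted p under 0.05) and 352 without C1 and N1, which was chosen after seeing the data. Leaving out 1 library gave 0 (without C2, with 4726 at an unadjusted p under 0.05), 5 (without N2 or without N3), 26 (C3), 29 (C1) or 71 (N1) calls. The log2 fold changes that then passed the threshold were, for pp_68477, pp_68481 and pp_68486 in that order, 1.46, 1.13 and 1.45 with the quasi-likelihood test, 1.46, 1.13 and 1.47 with the exact test, 1.46, 1.12 and 1.48 with DESeq2, and 1.18, 1.06 and 1.06 without C1 and N1. Leaving out 1 library gave 1.12 to 1.54 for pp_68477, 0.89 to 1.12 for pp_68481, 1.11 to 1.62 for pp_68486 and 0.19 to 0.23 for pp_68474, with limma adjusted p-values of 0.0428 to 0.303, 0.0678 to 0.324, 0.0428 to 0.258 and 0.502 to 0.830. The difference in share was 2.70 to 4.08 percentage points on leaving out 1 library and 0.955 with the other listed GS transcripts in the denominator, which makes the denominator larger by construction. Pseudocounts, the filter, TMM factors and quantile normalization changed no call of a member. Of the rare forms the libraries hold 8 to 128 reads each, and this depth limits C1 most.

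With the replicate number as a block, 49 transcripts were called by limma, and pp_68477 (log2 fold change 1.26, adjusted p = 0.0445) and pp_68486 (1.34, adjusted p = 0.0412) passed while pp_68481 (adjusted p = 0.0767) and pp_68474 did not. The correlations of deviations between libraries of the same number were -0.0024, 0.06 and -0.0085, and not every library correlated best with its own number, so the numbers were not treated as pairs. For the ratios to pp_68474 the block gave an exact p of 0.25, the smallest that 3 pairs allow, and other alternatives left the exact p at 0.10 or, without 1 library, at 0.20. These designs cannot reach 0.05, so the ratios' p-values say nothing of stability.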

Other observations

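Rows pp_68480 and pp_68482, which the study's tables place under glutamine metabolism without naming a glutamine synthetase, were chosen after their values were seen. The first measured 644 ± 24.1 CPM in controls and 741 ± 61.3 CPM under ammonium, and the second 595 ± 28.9 and 689 ± 57.7 CPM (SD, n = 3 each), with log2 fold changes of 0.20 and 0.21 that did not pass limma (adjusted p = 0.576 and 0.574). Reads of pp_68480 and of the glutamine synthetase transcript pp_68483 differed by 1 to 14 in each library. The cause of such near-equal counts was not tested. Row pp_68476, in none of the lists, was at a level like the rare forms. It measured 8.66 ± 2.79 CPM in controls and 10.6 ± 0.948 CPM under ammonium (SD, n = 3 each). Its groups overlapped, with a log2 fold change of 0.30 (limma adjusted p = 0.735). The 95% interval of its fold change, 0.890 to 1.71, overlapped that of pp_68481 (1.53 to 2.60). It ended just below those of pp_68477 and pp_68486, which began at 1.72 and 1.79. A single row does not show how rows at this level differed in general.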
